A study of Homo sapiens and Mus musculus with 55 samples.

Results

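The enzymes that write, copy and erase cytosine methylation were followed at the transcript level through every comparison of a breast cancer RNA-seq series of 55 libraries. The set was chosen by name and holds 9 genes: the methyltransferases DNMT1, DNMT3A and DNMT3B, the maintenance factors UHRF1 and HELLS, the oxidases TET1, TET2 and TET3, and the glycosylase TDG. All 9 were found in each of the 10 deposited tables, which list 24465 to 36036 genes, and all 9 passed the filter on low values in every table. STING1, listed under its older symbol TMEM173, was read from the same libraries. The series title ties MYC to epigenetic silencing of STING in triple-negative breast cancer, and methylation of cytosines in CpG dinucleotides at promoters is a well-known form of such silencing. Transcripts were measured here, not methylation.

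Methylation patterns are copied at replication. UHRF1 binds CpG sites methylated on the old strand alone and brings in DNMT1, which methylates the new strand, while HELLS, a chromatin remodeller that works with CDCA7, opens packed chromatin to them. DNMT3A and DNMT3B place methyl groups on unmethylated sites. The TET enzymes oxidise methylcytosine, and TDG cuts out the most oxidised forms so that base excision repair can restore plain cytosine.

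The cells were of 4 lines, the triple-negative breast cancer lines MDA-MB-436 and SUM159PT of human origin and the mammary tumour lines 4T1 and Py230 of the mouse. In each human line, 2 libraries of untreated parental cells (labelled Par) stand beside 2 of untreated cells labelled Tax-R, a name the labels do not spell out. The human MYC siRNA groups were all Tax-R cells and received control siRNA (siC), MYC siRNA-1 or MYC siRNA-2, with 2 libraries each, and 4T1 cells received the same 3 kinds of siRNA with 3 libraries each. Mock cells and groups C1 and C2 carrying a STING sgRNA had 2 libraries each in both human lines, and whether C1 and C2 are clones is not said in the labels. The ORF groups all carried a STING sgRNA and were given an open reading frame of either GFP or STING, with 2 libraries each. All Py230 cells carried a Sting1 shRNA, and 3 libraries had vehicle and 3 had doxycycline. No label says that libraries of a group came from separate cultures, so p-values measure the spread between these libraries, which may be technical.

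Depth was 5663610 to 13191675 reads a library. The MDA-MB-436 Tax-R pair differed by less than sampling noise over most genes (chi-square per gene 0.855, against 1.02 to 2.73 in the other 34 pairs) but not over its 21 most abundant genes (20.9), so it was kept as 2 libraries and also tried as 1. Vimentin (VIM), a mesenchymal marker, had group means of 1105 to 19595 in the human tables, while the summed levels of 4 epithelial markers (EPCAM, CDH1, KRT8 and KRT18) were 1946 to 11517 in human libraries, although the group means of EPCAM itself were at most 21.8. CDH1 was at 0 or had no row in every human table but the Tax-R and ORF tables of MDA-MB-436. Of the 4 leukocyte markers, CD3E was at most 2.56, LYZ at most 4.00 and CD14 at most 34.7 in any human library that has a row for them, but PTPRC had a group mean of up to 2047. In bulk RNA, fewer cells of a type and less RNA per cell cannot be told apart.

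Promoter sequences are shown for 4 members whose first listed start held E2F letters or an E-box, so they were picked by these letters, and nothing on how letters go with direction can be read from them. The 250 bases before the first listed start of each gene were taken from RefSeq (GRCh38.p14) and searched on both strands for the E2F letters TTTCCCGC, TTTCGCGC, TTTGCCGC and TTTGGCGC, which do not overlap the E-box, and for the E-box CACGTG, a sequence that MYC and related factors bind. Among the first starts of the 9 members, 2 held E2F letters (UHRF1 and HELLS) and 3 an E-box (TET2, not shown, TET3 and TDG), against 2.79% and 6.49% of the first starts of 27305 genes. Over all listed starts it was 3 and 5 of the members' 20, against 2.79% and 6.34% of 35116. DNMT1, DNMT3A, DNMT3B and TET1, which also moved with MYC siRNA, held neither at their first starts. DNMT3A did hold an E-box at its listed starts 4 and 6. The stretches shown are chr19:4909251-4909500 for UHRF1, chr10:94545538-94545787 for HELLS, chr2:73984660-73984909 for TET3 and chr12:103965622-103965871 for TDG, all on the plus strand. Capitals mark the matches, which are E2F letters on either strand in UHRF1 and HELLS and the E-box in TET3 and TDG.
UHRF1: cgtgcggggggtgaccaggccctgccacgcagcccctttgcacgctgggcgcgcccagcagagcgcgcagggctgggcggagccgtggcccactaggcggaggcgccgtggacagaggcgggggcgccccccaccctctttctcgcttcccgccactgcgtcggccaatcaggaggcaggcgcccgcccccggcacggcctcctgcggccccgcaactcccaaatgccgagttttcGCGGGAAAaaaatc
HELLS: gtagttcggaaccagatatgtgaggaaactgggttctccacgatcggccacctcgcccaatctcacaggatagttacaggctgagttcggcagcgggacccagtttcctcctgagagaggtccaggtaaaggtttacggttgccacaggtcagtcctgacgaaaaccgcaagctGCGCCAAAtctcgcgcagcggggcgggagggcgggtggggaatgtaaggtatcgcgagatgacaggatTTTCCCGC
TET3: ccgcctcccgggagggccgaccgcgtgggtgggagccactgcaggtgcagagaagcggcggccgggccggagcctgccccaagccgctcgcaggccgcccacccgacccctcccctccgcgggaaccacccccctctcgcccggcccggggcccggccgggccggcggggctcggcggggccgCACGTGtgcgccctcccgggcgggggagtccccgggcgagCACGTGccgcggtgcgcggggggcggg
TDG: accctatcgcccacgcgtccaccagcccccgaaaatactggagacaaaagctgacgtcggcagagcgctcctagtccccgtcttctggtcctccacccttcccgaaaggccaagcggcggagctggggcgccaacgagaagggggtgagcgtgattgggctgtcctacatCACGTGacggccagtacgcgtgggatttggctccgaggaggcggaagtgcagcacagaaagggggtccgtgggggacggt
In HELLS an E2F match ended at the last base before the start and another lay 68 bases before it, and in UHRF1 the match lay 6 bases before the start. TET3 held its E-boxes 61 and 21 bases and TDG its E-box 74 bases before the start. The first listed TET3 start did not match a GENCODE v29 transcript of the gene, whereas those of UHRF1, HELLS and TDG did. The other listed start of TET3 held no E-box. A match describes letters, not binding.

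Normalized counts divided by exon length (GENCODE v29, in kilobases) put the members in order of transcript level. In parental MDA-MB-436 libraries, DNMT1 was highest at 493 normalized counts per kilobase, followed by HELLS at 378. UHRF1 at 301 (298 to 303 in its 2 libraries) and TDG at 297 (294 to 299) overlapped. DNMT3B at 176 and TET3 at 130 were next, ahead of TET1 at 59.1, TET2 at 57.1 and DNMT3A at 29.9. In parental SUM159PT libraries HELLS and DNMT1 overlapped at the top (452 to 479 and 450 to 480 per kilobase), and DNMT3A was again lowest at 33. TDG at 322 stood above UHRF1 at 276 there, without overlap (310 to 334 and 262 to 289). The place of TDG is uncertain in both lines here, because reads can be split between it and its near-copy TDGP1. TDGP1 was listed at 290 to 331 normalized counts in the MDA-MB-436 and 289 to 318 in the SUM159PT libraries of these tables. DNMT1 and HELLS thus led the set in the parental libraries of these tables. The order differed in other tables of the same lines: in mock MDA-MB-436 libraries DNMT1 led at 347, then UHRF1 at 260, TDG at 183 and HELLS at 94.7. In mock SUM159PT libraries DNMT1 at 453 and UHRF1 at 421 stood above HELLS at 170, and DNMT3A at 11.5 and TET2 at 11.4 were lowest. With control siRNA UHRF1 at 222 and DNMT1 at 218 led in MDA-MB-436 Tax-R cells, and HELLS at 145 and DNMT1 at 122 in SUM159PT Tax-R cells.

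Tax-R cells were compared with their parental cells to see how the set differed where STING1 was low. STING1 was lower in Tax-R cells of both lines, from 412 and 382 to 191 and 196 normalized counts in MDA-MB-436 (-1.03 ± 0.07, adjusted p = 2.65e-07) and from 557 and 499 to 156 and 164 in SUM159PT (-1.71 ± 0.08, adjusted p = 2.03e-07). Each bracket gives the log2 fold change (from log2 of the value + 1) ± SE and limma's Benjamini-Hochberg adjusted p over all genes of the table, and genes said to have risen or fallen had an adjusted p below 0.05. The MYC transcript passed in neither line (-0.07 ± 0.04, adjusted p = 0.174 in MDA-MB-436 and 0.11 ± 0.06, adjusted p = 0.149 in SUM159PT). After quantile normalization the MDA-MB-436 value passed as lower (limma adjusted p = 0.0402), and without parental replicate 2 the SUM159PT change was 0.21. The 3 maintenance genes UHRF1, HELLS and DNMT1 rose with TET3 in both lines, and DNMT3B and TDG fell in both. Of the 9 members, 7 passed the test in MDA-MB-436 (5 higher, 2 lower), where 54.6% of all genes did, 27.7% higher and 26.9% lower. In SUM159PT 8 passed (4 higher, 4 lower) against 45.7%, with 23.5% higher and 22.1% lower. Groups did not overlap for 8 members in each line, against 77.1% and 73.2% of all genes. No test set the members apart from these backgrounds.

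UHRF1 in MDA-MB-436 was at 1535 and 1561 in parental and 1954 and 2015 in Tax-R libraries (0.36 ± 0.04, adjusted p = 7.03e-06), and in SUM159PT at 1486 and 1349 against 1859.5 and 2044 (0.46 ± 0.06, adjusted p = 0.000158). HELLS rose from 1224 and 1297 to 1964 and 1915 in MDA-MB-436 (0.62 ± 0.04, adjusted p = 2.05e-07), a 1.54-fold change and the largest of the set there. Parental and Tax-R libraries did not overlap for either gene. In SUM159PT the rise of HELLS was smaller, from 1506 and 1598 to 1874 and 1802 (0.24 ± 0.04, adjusted p = 0.00132, lost with no filter on low values at adjusted p = 0.0512). DNMT1 rose from 2664 and 2719 to 3019.7 and 2977 in MDA-MB-436 (0.16 ± 0.03, adjusted p = 0.00223) and from 2456 and 2620.1 to 3089 and 3126 in SUM159PT (0.29 ± 0.04, adjusted p = 0.000324). The MDA-MB-436 call for DNMT1 was lost with DESeq2 (adjusted p = 0.059) and without Tax-R replicate 1 (limma adjusted p = 0.051).

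Of the enzymes that set new methylation, DNMT3B fell in MDA-MB-436 from 822 and 804 to 604 and 630.0 (-0.40 ± 0.04, adjusted p = 1.59e-05) and in SUM159PT from 541 and 548 to 410.2 and 438 (-0.36 ± 0.06, adjusted p = 0.000619). DNMT3A fell in SUM159PT, from 375 and 333 to 249 and 261 (-0.47 ± 0.08, adjusted p = 0.000943). In MDA-MB-436 its groups overlapped, at 362 and 279 in parental and 296 and 326 in Tax-R libraries (-0.03 ± 0.10, adjusted p = 0.811). The wider of those pairs was the parental one.

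Among the erasers, TET3 rose from 1489 and 1498 to 1659 and 1723 in MDA-MB-436 (0.18 ± 0.04, adjusted p = 0.00143, lost with DESeq2 at adjusted p = 0.0698) and from 1407 and 1322 to 1687 and 1694 in SUM159PT (0.31 ± 0.04, adjusted p = 0.000257). TET1 and TET2 each passed the test in 1 line. TET1 fell in SUM159PT from 894 and 794 to 556 and 539 (-0.62 ± 0.06, adjusted p = 3.06e-05) and was at -0.04 ± 0.05 in MDA-MB-436 (adjusted p = 0.493), while TET2 rose in MDA-MB-436 from 889.8 and 908 to 1169 and 1204 (0.40 ± 0.04, adjusted p = 5.60e-06) and was at 0.03 ± 0.04 in SUM159PT (adjusted p = 0.602). Whether the lines differed in these genes was not tested. TDG fell by a little in both, from 978 and 994 to 887 and 874 (-0.16 ± 0.04, adjusted p = 0.00386, lost with DESeq2 at adjusted p = 0.118) and from 1111 and 1031 to 921 and 868 (-0.26 ± 0.05, adjusted p = 0.00248, lost with no filter on low values at adjusted p = 0.0727). TDG is uncertain in these 2 tables, because its near-copy TDGP1 was listed at 289 to 331 in every library and reads can be split between them.

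**Figure D1:**
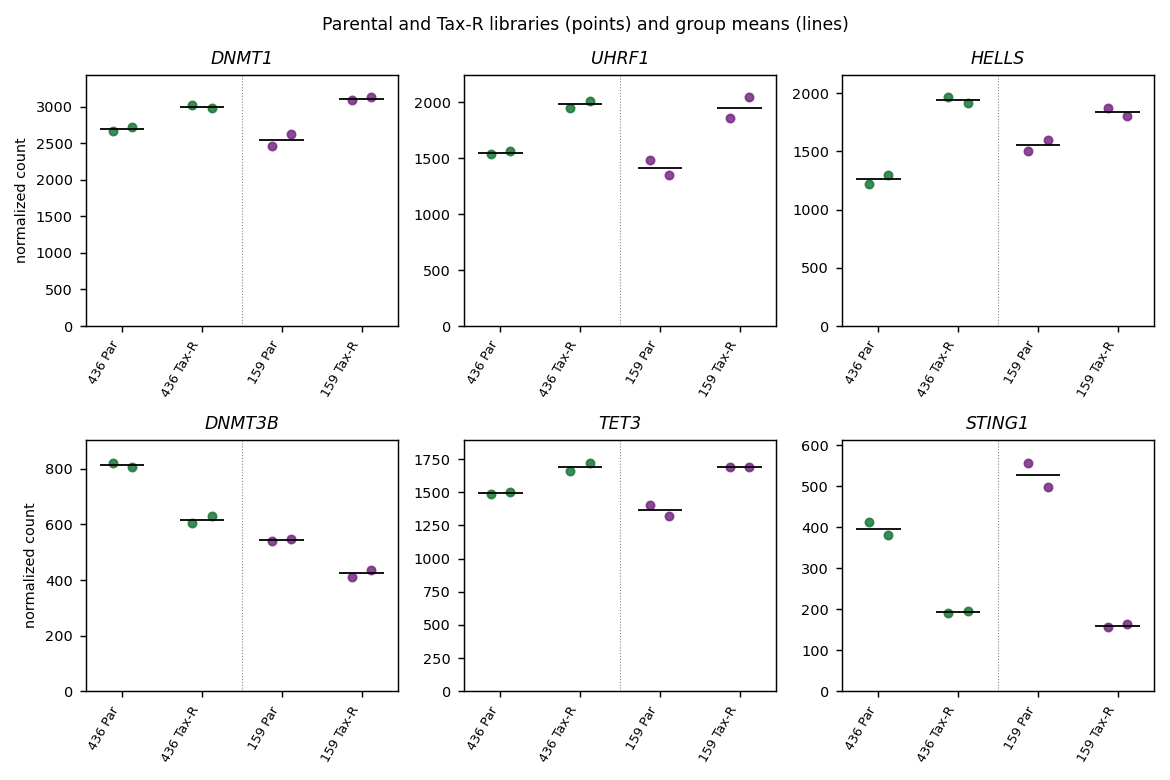
Normalized counts (y axis, from 0) of DNMT1, UHRF1, HELLS, DNMT3B, TET3 and STING1 in parental and Tax-R libraries of MDA-MB-436 (436, green) and SUM159PT (159, purple), with points for libraries and lines for group means. UHRF1, HELLS, DNMT1 and TET3 sit higher, and DNMT3B and STING1 lower, in the Tax-R libraries of both lines, with no overlap between the groups of a line.

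Replication genes moved the same way as the maintenance genes. Of 18 replication and S phase genes, 16 rose and 0 fell in Tax-R cells of MDA-MB-436, with a median change of 0.32 (log2) against 0.01 over all genes tested, and 14 rose and 0 fell in SUM159PT (median 0.15 against 0.01). The part of replication in the rise of UHRF1, HELLS and DNMT1 was not tested. CDCA7, the partner of HELLS, rose by 0.59 ± 0.04 and 0.18 ± 0.04. Of 16 TET cofactors and repair genes, 7 rose and 4 fell in MDA-MB-436 and 5 rose and 5 fell in SUM159PT. In both lines LIG3, the ligase that seals repaired bases, rose most (0.64 ± 0.03 and 0.73 ± 0.04), and CXXC5, which can recruit TET2, fell most (-1.18 ± 0.13 and -1.32 ± 0.16). Of 8 methyl-CpG readers, 6 rose and 1 fell in MDA-MB-436 and 5 rose and 0 fell in SUM159PT. The summed level of the 4 leukocyte markers, nearly all of it PTPRC, was 2011 to 2133 in parental and 256 to 382 in Tax-R libraries of MDA-MB-436, and 549.9 to 584 against 7.92 to 14.3 in SUM159PT. Summed endothelial markers went from 279 to 294 in parental to 166 to 203 in Tax-R libraries of MDA-MB-436, and from 231 to 235 to 97.2 to 118 in SUM159PT. Summed epithelial markers went from 2816 to 2862 in parental to 1946 to 2062 in Tax-R libraries of MDA-MB-436, and from 2943 to 2983 to 1991 to 2037 in SUM159PT. These sums do not give the direction of each marker. Of the 3 epithelial markers tested in MDA-MB-436, 1 rose (0.84) and 2 fell, while both of the 2 tested in SUM159PT fell. The part of these marker lists in the changes was not tested.

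MYC siRNA was given to human Tax-R cells and to 4T1 cells. STING1 rose in both lines, from 24.5 and 11.6 to 61.5 and 63.6 (siMYC1) and 90.1 and 71.9 (siMYC2) in MDA-MB-436 (2.003 ± 0.21, adjusted p = 2.54e-09) and from 93.3 and 101 to 194 and 177 (siMYC1) and 180.4 and 189 (siMYC2) in SUM159PT (0.92 ± 0.10, adjusted p = 7.92e-11). The targeted MYC transcript fell 1.83-fold in SUM159PT, from 2727 and 2663 to 1538 and 1428 (siMYC1) and 1504 and 1426 (siMYC2) (-0.87 ± 0.04, adjusted p = 3.97e-23). In MDA-MB-436 it fell less, from 2058 and 2019 to 1897 and 1930.1 (siMYC1) and 1924 and 1906 (siMYC2) (-0.09 ± 0.03, adjusted p = 0.0144, lost with DESeq2 at adjusted p = 0.109 and without control replicate 1 at limma adjusted p = 0.124), a change of 1.06-fold. UHRF1, HELLS, DNMT3B, TET1 and TDG fell and DNMT3A and TET3 rose in both lines, while DNMT1 went opposite ways. In MDA-MB-436 8 members passed the test (3 higher, 5 lower) against 67.7% of all genes (34% higher, 33.7% lower), and in SUM159PT all 9 did (3 higher, 6 lower) against 69.5% (35% and 34.5%). In both lines the groups of all 9 were free of overlap, as were those of 72.3% and 73.9% of all genes.

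UHRF1 fell from 1161 and 1126 to 725 and 695 (siMYC1) and 679 and 628 (siMYC2) in MDA-MB-436 (-0.75 ± 0.05, adjusted p = 4.52e-14). In SUM159PT it fell 3.63-fold, from 511 and 515 to 129.6 and 155 (siMYC1) and 125 and 156 (siMYC2) (-1.86 ± 0.09, adjusted p = 7.47e-23). No siMYC library of either line reached the level of a control library. HELLS fell from 504 and 509.7 to 397 and 402 (siMYC1) and 412 and 379 (siMYC2) in MDA-MB-436 (-0.35 ± 0.06, adjusted p = 8.86e-06) and 3.03-fold in SUM159PT, from 458 and 510.1 to 171 and 154 (siMYC1) and 154 and 157 (siMYC2) (-1.60 ± 0.09, adjusted p = 1.14e-21). The groups did not overlap here either. DNMT1 rose slightly in MDA-MB-436, from 1204 and 1181 to 1425 and 1372 (siMYC1) and 1332 and 1347 (siMYC2) (0.20 ± 0.04, adjusted p = 3.55e-05), and fell in SUM159PT, from 691 and 639 to 467 and 462 (siMYC1) and 511 and 544 (siMYC2) (-0.43 ± 0.06, adjusted p = 3.79e-08).

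The enzymes of new methylation moved apart from each other. DNMT3A rose 1.71-fold in MDA-MB-436, from 86.3 and 81.5 to 129 and 146 (siMYC1) and 136 and 167 (siMYC2) (0.77 ± 0.11, adjusted p = 9.38e-07), and 2.12-fold in SUM159PT, from 120.2 and 109 to 251 and 253 (siMYC1) and 239 and 229.5 (siMYC2) (1.08 ± 0.09, adjusted p = 2.01e-14). DNMT3B fell 2.04-fold in MDA-MB-436, from 319.6 and 323 to 161 and 145 (siMYC1) and 145 and 179.9 (siMYC2) (-1.03 ± 0.09, adjusted p = 8.28e-11), and from 199 and 198 to 145 and 138 (siMYC1) and 108 and 123 (siMYC2) in SUM159PT (-0.63 ± 0.11, adjusted p = 7.50e-07). In both lines every siMYC library lay above the controls for DNMT3A and below them for DNMT3B.

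Of the TET genes, TET1 fell by 1.52-fold in MDA-MB-436, from 132 and 141 to 84 and 94.9 (siMYC1) and 92 and 86.8 (siMYC2) (-0.61 ± 0.12, adjusted p = 4.67e-05), and from 301 and 279 to 155 and 179 (siMYC1) and 195 and 182 (siMYC2) in SUM159PT (-0.71 ± 0.09, adjusted p = 2.52e-09). TET3 rose in SUM159PT from 445 and 473 to 775 and 696 (siMYC1) and 733 and 715 (siMYC2) (0.67 ± 0.06, adjusted p = 5.70e-14). Its rise in MDA-MB-436 was small, from 606 and 581 to 666 and 641 (siMYC1) and 638 and 702 (siMYC2) (0.16 ± 0.05, adjusted p = 0.0104), and was lost with DESeq2 (adjusted p = 0.0967), without control replicate 2 (limma adjusted p = 0.111) and without siMYC2 replicate 2 (0.0539). TET2 was the steadiest of the set, at 0.12 ± 0.08 in MDA-MB-436 (adjusted p = 0.175) and 0.20 ± 0.09 in SUM159PT (adjusted p = 0.0317, a call lost under 8 of 14 alternatives, at 0.365 without control replicate 2 and 0.0528 to 0.0702 without any single siMYC library). TDG fell from 432 and 485 to 349 and 339.7 (siMYC1) and 373 and 361 (siMYC2) (-0.37 ± 0.06, adjusted p = 1.33e-05) and from 302 and 349.7 to 267 and 257 (siMYC1) and 287 and 254 (siMYC2) (-0.29 ± 0.08, adjusted p = 0.00173, lost without control replicate 2 at limma adjusted p = 0.097). TDGP1 was at 75.0 to 107 in the MDA-MB-436 libraries, so TDG is uncertain there too.

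In 4T1 cells fewer members passed the test. Sting1 rose from 121, 123 and 139 to 188, 151 and 169 (siMYC1) and 152, 179.8 and 172 (siMYC2) (0.40 ± 0.09, adjusted p = 0.00106), but the Myc transcript did not pass the test (-0.09 ± 0.04, adjusted p = 0.0683, though it passed after quantile normalization, with edgeR, and without control replicate 1 or siMYC1 replicate 2, at 0.046 and 0.0376). Of the 9 members, 4 passed (2 higher, 2 lower), against 46.2% of all genes (24.7% higher, 21.5% lower), and the same 4 had groups that did not overlap, against 39.3%. Uhrf1 rose with Sting1, from 1609, 1409.6 and 1506 to 1974, 1901 and 1756 (siMYC1) and 1917, 1962 and 1964 (siMYC2) (0.34 ± 0.05, adjusted p = 1.03e-06). Tet3 fell, from 855, 921 and 829 to 598, 576 and 630.1 (siMYC1) and 656, 678 and 598 (siMYC2) (-0.48 ± 0.05, adjusted p = 5.24e-08), and Dnmt3b fell, from 85.3, 73.2 and 78.5 to 53.5, 62 and 42.2 (siMYC1) and 48.4, 53.8 and 63.7 (siMYC2) (-0.55 ± 0.14, adjusted p = 0.00234). For these genes no siMYC library overlapped a control. Dnmt1 (0.10 ± 0.04, adjusted p = 0.0433) lost its call under 15 of 17 alternatives, among them leaving out any library but siMYC1 replicate 3 (0.0514 to 0.129). Hells was at 1479, 1392 and 1552 in control and 1529, 1459 and 1253 (siMYC1) and 1399, 1469 and 1431 (siMYC2) in siMYC libraries, with overlap (-0.05 ± 0.05, adjusted p = 0.439, lower after quantile normalization at 0.0379). Tdg was at -0.15 ± 0.07 (adjusted p = 0.0875, lower without siMYC1 replicate 1 at 0.015). Dnmt3a, Tet1 and Tet2 did not pass either (-0.06 ± 0.06, 0.17 ± 0.25 and -0.04 ± 0.07), and Tet1 was low, at 12.6 to 32.3 normalized counts. DNMT3B was thus lower with MYC siRNA in all 3 lines, and UHRF1 lower in 2 and higher in 1.

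**Figure D2:**
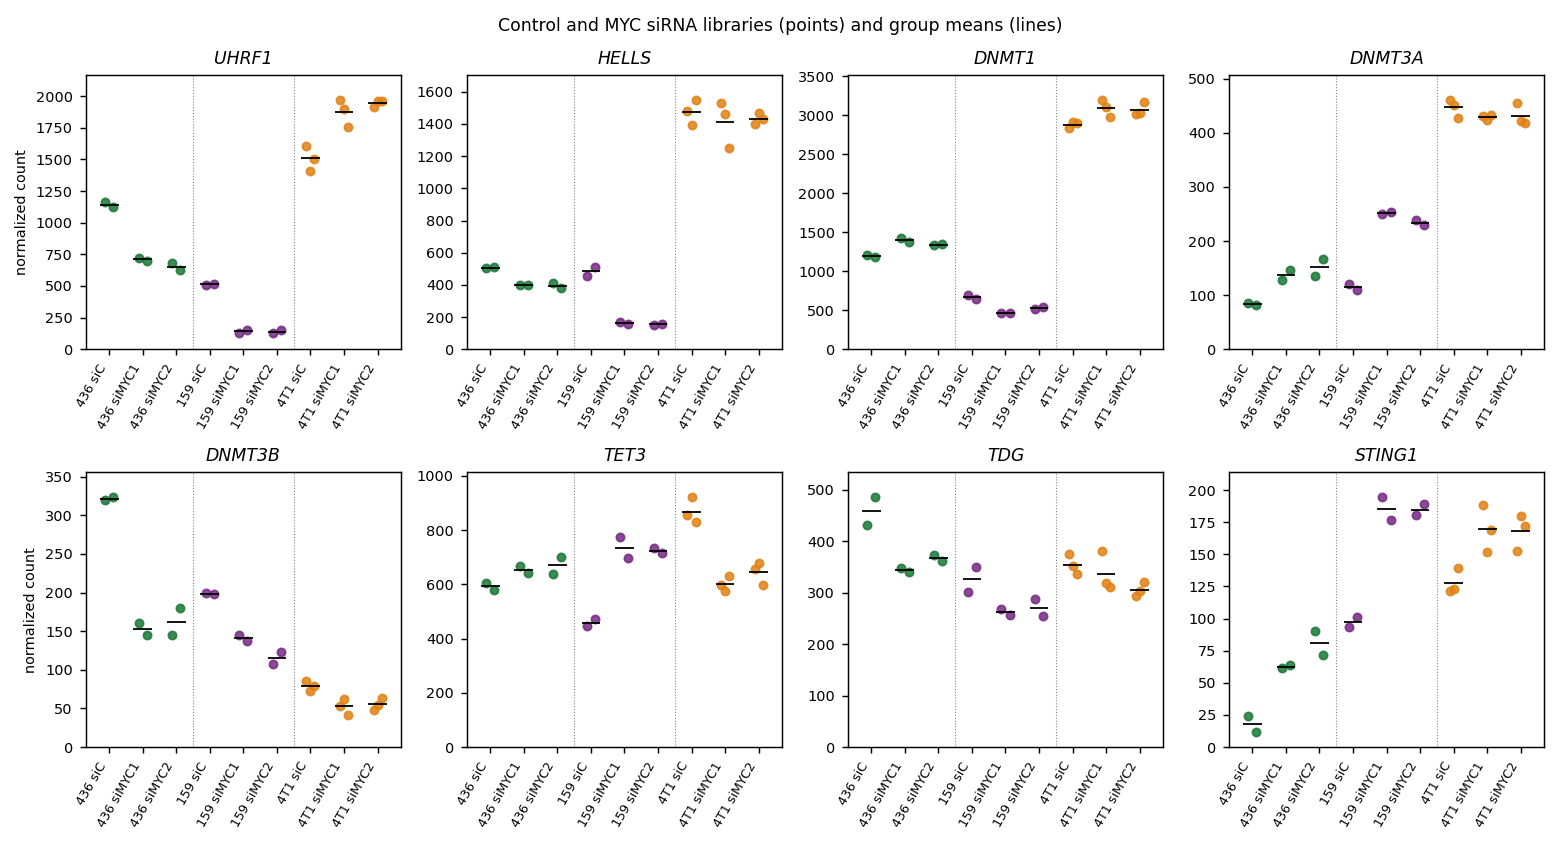
Normalized counts (y axis, from 0) with control siRNA (siC), siMYC1 or siMYC2 in MDA-MB-436 Tax-R (436, green), SUM159PT Tax-R (159, purple) and 4T1 (orange) libraries, with points for libraries and lines for group means. UHRF1, HELLS and DNMT3B fall and DNMT3A and STING1 rise in both human lines, whereas in 4T1 UHRF1 rises and TET3 falls.

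Replication genes again went with UHRF1. Of the 18, 0 rose and 16 fell in MDA-MB-436 (median -0.51, against -0.01 over all genes tested), 0 rose and 18 fell in SUM159PT (median -1.95, against -0.01), and 11 rose and 1 fell in 4T1 (median 0.26, against 0.00). The part of replication in the changes of UHRF1 and HELLS was not tested. CDCA7, partner of HELLS, fell in the human lines (-1.31 ± 0.07 and -2.71 ± 0.14). PARP1, a sensor of DNA breaks in repair, had the largest fall of the TET cofactors and repair genes in SUM159PT (-1.52 ± 0.05), and APEX1, which cuts the strand after TDG, the largest in MDA-MB-436 (-1.10 ± 0.05). That list held 4 higher and 9 lower of 16 in MDA-MB-436, 2 and 11 of 16 in SUM159PT and 2 and 8 of 14 tested in 4T1. Of 7 genes that supply the methyl donor, 5 fell and 1 rose in each human line and 7 fell in 4T1. The methyl-CpG reader ZBTB4 rose most of its list in all 3 lines (0.70 ± 0.05, 0.64 ± 0.05 and 0.69 ± 0.06). Summed leukocyte markers did not exceed 13.3 in the human siRNA tables, and summed mesenchymal markers were 20643 to 21039 with control and 24702 to 26322 with MYC siRNA in MDA-MB-436, 26179 to 26285 against 37899.9 to 39018 in SUM159PT, and 17403 to 17869 against 35214 to 39520.1 in 4T1. Summed epithelial markers were 3972 to 3995 with control and 4739 to 4877 with MYC siRNA in MDA-MB-436. They were 4573 to 4583 against 5698 to 5978 in SUM159PT, and 16275 to 17368 against 20555 to 21706 in 4T1. Such sums do not give the direction of each marker. Of the 3 mesenchymal markers, 2 rose and 0 fell in MDA-MB-436. In SUM159PT 1 rose (1.48) and 0 fell, with a median change of -0.018 over the 3. Both of the 2 tested in 4T1 rose. The part of these lists in the changes was not tested.

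The STING sgRNA and ORF groups show the set when STING1 itself was the target. The STING1 transcript was lowered but not lost by the sgRNA, from 182 and 158 in mock to 55.1 and 41.7 (C1) and 44 and 46 (C2) in libraries of MDA-MB-436 (-1.85 ± 0.15, adjusted p = 3.69e-11) and from 261 and 229 to 94.9 and 114 (C1) and 101 and 92.7 (C2) in SUM159PT (-1.28 ± 0.11, adjusted p = 1.29e-12). In cells with the sgRNA, the STING ORF gave 614 and 579 against 32.1 and 21 with the GFP ORF in MDA-MB-436 (4.47 ± 0.16, adjusted p = 2.90e-21) and 1599 and 1455 against 65.4 and 81.1 in SUM159PT (4.37 ± 0.12, adjusted p = 2.89e-21), with reads of the ORF and the gene not separated. TDG rose in all 4 comparisons, and UHRF1 fell in 3 of them, whether STING1 was lowered or raised. With the sgRNA 5 members passed in MDA-MB-436 (3 higher, 2 lower, against 47.8% of all genes, 24.8% and 23%) and 4 in SUM159PT (3 higher, 1 lower, against 39.1%, 19.3% and 19.8%). With the ORF 5 passed in MDA-MB-436 (2 higher, 3 lower, against 21.1%, 9.2% and 11.9%) and 4 in SUM159PT (2 higher, 2 lower, against 26%, 13.2% and 12.8%). Groups did not overlap for 7 members (MDA-MB-436, 57.3% of all genes) and 4 (SUM159PT, 43.8%) with the sgRNA, and for 8 (61%) and 7 (63%) with the ORF, shares that no test set apart from the background. With no filter on low values, 0 members kept a call in either ORF comparison.

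UHRF1 fell with the sgRNA in MDA-MB-436, from 1339 and 1338 to 1185 and 1113 (C1) and 1070.0 and 1052 (C2) (-0.28 ± 0.05, adjusted p = 8.31e-06). It fell again when the STING ORF was added, from 1441 and 1336 with GFP to 1120.4 and 1054 with STING in MDA-MB-436 (-0.35 ± 0.08, adjusted p = 0.00116) and from 2049 and 2061 to 1699 and 1568 in SUM159PT (-0.33 ± 0.07, adjusted p = 0.00101). Each of these 3 falls was without overlap of the groups. The ORF calls were lost without STING replicate 2 in MDA-MB-436 (limma adjusted p = 0.0581) and without GFP replicate 1 or 2 in SUM159PT (0.0886 and 0.0864), and with no filter on low values (0.136 and 0.088). In SUM159PT with the sgRNA the groups C1 and C2 lay on either side of mock, which was at 2142 and 2190.4, with C1 at 2305 and 2304 and C2 at 1998 and 2022, and their mean did not pass the test against mock (-0.01 ± 0.04, adjusted p = 0.876), although C2 alone did (0.0428). C2 differed from C1 by -0.20 ± 0.04 (adjusted p = 0.00116, a contrast added after the data were seen), where 19.9% of all genes did so, against 0.797% between C1 and C2 of MDA-MB-436.

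HELLS went the other way from UHRF1 in MDA-MB-436. It rose from 298 and 334 to 386 and 393 (C1) and 398 and 417 (C2) with the sgRNA (0.34 ± 0.07, adjusted p = 0.000228), and from 348 and 409 to 454 and 487 with the STING ORF (0.32 ± 0.10, adjusted p = 0.021), a call lost with DESeq2 (adjusted p = 0.164), with no filter (0.226), without GFP replicate 1 (limma adjusted p = 0.27) and without STING replicate 2 (0.216). In SUM159PT its means did not pass the test (0.01 ± 0.06 with the sgRNA and 0.20 ± 0.11 with the ORF, adjusted p = 0.944 and 0.188), though without STING replicate 1 the ORF value passed (0.00227). There C2 exceeded C1 by 0.22 ± 0.07 (adjusted p = 0.0169), at 603 and 626 against 535 and 522, opposite to UHRF1. Both of these contrasts were lost with no filter on low values (adjusted p = 0.0743 for UHRF1 and 0.0905 for HELLS). DNMT1 passed in none of the 4 comparisons, at -0.09 ± 0.04, 0.03 ± 0.04, -0.16 ± 0.07 and 0.08 ± 0.07 (adjusted p from 0.0929 to 0.632), although 5 alternatives passed in MDA-MB-436 (with the sgRNA quantile normalization at 0.0197, C2 alone at 0.0123 and without C2 replicate 1 at 0.0182, and with the ORF the replicate block at 0.029 and without GFP replicate 2 at 0.0472).

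TDG rose in MDA-MB-436 from 599 and 619 to 729 and 695 (C1) and 702 and 763 (C2) with the sgRNA (0.24 ± 0.06, adjusted p = 0.000567) and in SUM159PT from 530.2 and 511 to 607 and 586 (C1) and 584 and 616 (C2) (0.20 ± 0.06, adjusted p = 0.00494). With the STING ORF it rose from 607 and 614 to 709 and 745 (0.25 ± 0.08, adjusted p = 0.0314) and from 555 and 575 to 661 and 808 (0.37 ± 0.10, adjusted p = 0.00584). The perturbed libraries lay above the controls in each of the 4, and TDGP1 stayed at 4.19 to 24 in these tables. Only the rise with the sgRNA in MDA-MB-436 kept its call under every alternative. With the sgRNA in SUM159PT it was lost with DESeq2 (adjusted p = 0.0908) and without mock replicate 2 (limma adjusted p = 0.0531). With the ORF it was lost in MDA-MB-436 under 5 of 10 alternatives, among them without GFP replicate 1 (0.099), STING replicate 1 (0.0871) or STING replicate 2 (0.291), and in SUM159PT under 3 of 10, among them without GFP replicate 1 (0.158) or 2 (0.0792).

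DNMT3A fell with the sgRNA in both lines and with the ORF in SUM159PT. In SUM159PT with the ORF it fell 1.86-fold, from 112 and 106 to 59.9 and 56.5 (-0.89 ± 0.17, adjusted p = 0.000274). With the sgRNA it was at 83 and 73.8 in mock, 45.1 and 48 in C1 and 46 and 71.6 in C2 libraries of MDA-MB-436 (-0.59 ± 0.17, adjusted p = 0.00584, lost without mock replicate 1 at limma adjusted p = 0.0961 with DESeq2 at 0.0798, with no filter at 0.0793 and with C2 alone at 0.0703). With C1 alone it kept its call. A C2 library came close to mock. In SUM159PT the sgRNA call (-0.31 ± 0.12, adjusted p = 0.04) was lost under 9 of 14 alternatives, among them without mock replicate 2 (0.328) and without any single C1 or C2 library (0.06 to 0.0791). With the ORF in MDA-MB-436 the groups overlapped (-0.01 ± 0.22, adjusted p = 0.973). DNMT3B passed only with the ORF in MDA-MB-436, from 272 and 258 to 215 and 192 (-0.38 ± 0.12, adjusted p = 0.0186), lost with DESeq2 (0.221), without GFP replicate 1 (0.112) and without STING replicate 2 (0.228).

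The TET genes each passed in 1 or 2 of the 4. TET1 rose from 131 and 140.3 to 179 and 175 (C1) and 192 and 216 (C2) with the sgRNA in MDA-MB-436 (0.49 ± 0.10, adjusted p = 0.000152) and from 117 and 134 to 178 and 194 with the ORF in SUM159PT (0.57 ± 0.14, adjusted p = 0.00312, lost without GFP replicate 1 at limma adjusted p = 0.13 and with DESeq2 at 0.0684). TET2 rose from 156 and 203 to 208 and 231 (C1) and 261 and 261 (C2) with the sgRNA in SUM159PT (0.42 ± 0.09, adjusted p = 0.000353), and TET3 from 398 and 459 to 536 and 486 (C1) and 531 and 517 (C2) (0.28 ± 0.07, adjusted p = 0.000701). For both, the higher mock library lay just below the lowest C1 or C2 library, and both calls were lost with no filter on low values (0.0846 and 0.0774) and without mock replicate 1 (0.11 and 0.0903). With the ORF in MDA-MB-436 TET3 fell, from 377 and 337 to 244 and 296 (-0.41 ± 0.11, adjusted p = 0.00787), lost with DESeq2 (0.131), without GFP replicate 1 (0.0855) and without STING replicate 1 (0.182). TET2 with the ORF in SUM159PT was at -0.31 ± 0.15 (adjusted p = 0.135) and passed with the replicate block (0.0477) and without STING replicate 2 (0.00639).

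Replication genes were split in direction, with 6 higher and 3 lower of 18 with the sgRNA in MDA-MB-436 (median 0.07, against 0.01 over all genes), 4 and 6 in SUM159PT (0.04 against 0.00), and 1 and 4 (-0.09 against -0.01) and 3 and 6 (-0.07 against 0.01) with the ORF. MBD3, a methyl-CpG-binding family member of a repressor complex, had the largest fall among the readers in all 4 (-0.36 ± 0.06, -0.14 ± 0.05, -0.42 ± 0.10 and -0.38 ± 0.09), although the SUM159PT sgRNA value was 0.0038 with C1 alone. TRIM28, a corepressor that brings methyltransferases to repeats, fell most among the methylation partners in 3 of them (-0.35 ± 0.03, -0.36 ± 0.04 and -0.31 ± 0.07). PTPRC set nearly all of the summed leukocyte level, which was 1018 to 1033 in mock and 1222 to 1314 in sgRNA libraries of MDA-MB-436, 96.3 to 116 against 0 to 7.20 in SUM159PT, and 564 to 650.5 with GFP against 433 to 478 with STING ORF in MDA-MB-436. LYZ was at most 2.06 in these tables. Summed mesenchymal markers were 21445 to 21689.9 in mock and 25665 to 27443 in sgRNA libraries of MDA-MB-436, 20489 to 20813 against 26804 to 27931 in SUM159PT, 17463 to 18742 with GFP against 15595 to 16189 with STING in MDA-MB-436, and 23695 to 23708 against 19062 to 19364 in SUM159PT. Summed epithelial markers were 6434 to 6459 in mock and 5532 to 5848 in sgRNA libraries of MDA-MB-436, 9548 to 9980.0 against 10243 to 11517 in SUM159PT, 6126 to 6996 with GFP against 4619 to 4809 with STING in MDA-MB-436, and 11043 to 11302 against 9309 to 9840.0 in SUM159PT. Of the 3 mesenchymal markers, 3 rose and 0 fell with the sgRNA in MDA-MB-436, and 2 and 0 in SUM159PT. With the ORF they were split, with 1 higher and 1 lower in MDA-MB-436 and 1 and 2 in SUM159PT. The part of these lists in the results was not tested.

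Doxycycline in Py230 cells with a Sting1 shRNA changed 7 of the 9 members (2 higher, 5 lower), against 67.8% of all genes (32.8% higher, 35.1% lower), with no overlap of groups for 7, against 70.8%. Sting1 fell 17.6-fold, from 841, 768 and 886 to 48.3, 47.5 and 42.9 (-4.14 ± 0.09, adjusted p = 4.00e-22), and Myc fell 3.12-fold as well, from 2769.9, 3281 and 3274 to 1020.1, 964 and 998 (-1.64 ± 0.05, adjusted p = 1.41e-18). No group had doxycycline without the shRNA, so effects of the drug and of the shRNA cannot be told apart. Uhrf1, Hells, Dnmt1, Dnmt3a and Dnmt3b fell and Tet3 and Tdg rose. Uhrf1 fell from 437, 443 and 411 to 265, 224 and 236 (-0.83 ± 0.08, adjusted p = 6.10e-10), Hells from 662, 605 and 653 to 402, 469 and 397 (-0.60 ± 0.07, adjusted p = 2.35e-08) and Dnmt1 from 1631, 1716 and 1679.7 to 1497, 1581 and 1376 (-0.18 ± 0.05, adjusted p = 0.00313). The groups did not overlap for these genes.

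Dnmt3a fell 1.77-fold in Py230 cells, from 1150.4, 1087 and 1078 to 623, 646 and 599 (-0.83 ± 0.05, adjusted p = 7.04e-13). The fall of Dnmt3b, from 171, 139.7 and 121 to 121, 122 and 110.5 (-0.27 ± 0.12, adjusted p = 0.0463), had overlapping groups and lost its call under 8 of 12 alternatives, among them leaving out any library but vehicle replicate 3 (0.0619 to 0.312). Tet3 rose from 1904, 2006 and 1869 to 2173, 2185 and 2310.0 (0.21 ± 0.04, adjusted p = 0.000232) and Tdg from 710.1, 747 and 709.8 to 845, 852 and 844 (0.23 ± 0.05, adjusted p = 0.000374), both without overlap. Tet1 (0.32 ± 0.15, adjusted p = 0.0631, though higher after quantile normalization at 0.0281) and Tet2 (-0.06 ± 0.07, adjusted p = 0.476) did not pass. The groups of Tet1 did not overlap, so the 7 members without overlap held Tet1 in place of Dnmt3b. Of the 18 replication genes 4 rose and 12 fell (median -0.35, against -0.01), Cdca7 fell (-0.67 ± 0.09), and the largest fall among TET cofactors and repair genes was that of the stress gene Gadd45a (-2.99 ± 0.15). Ptprc was at most 2.13, Cd3e at most 1.79 and Cd14 434 to 496 in Py230 libraries, and summed mesenchymal markers were 38435 to 40028 with vehicle and 53789 to 63194 with doxycycline, and epithelial markers 10952 to 11759 and 10485 to 10737. Of the 4 epithelial markers 1 rose (0.85) and 3 fell, and of the 3 mesenchymal markers 2 rose and 0 fell. The part of these lists in the changes was not tested.

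Read gene by gene against STING1 in the same libraries, the set had no common direction. UHRF1 and HELLS passed the test opposite to STING1 in each of the 4 Tax-R and MYC siRNA comparisons of the human lines. In that direction passed 27.7% and 23.5% of all genes in Tax-R cells and 33.7% and 34.5% with MYC siRNA (MDA-MB-436 first). With MYC siRNA in 4T1, Uhrf1 passed in the same direction as Sting1 and Hells did not pass. Where STING1 was itself the target, UHRF1 passed in the opposite direction in 2 and in the same direction in 2 of 5 comparisons, and HELLS in 1 and 2. DNMT3A passed with STING1 in 6 of its 7 calls, the exception being the ORF in SUM159PT. Both of its sgRNA calls were fragile, as given above. Over the 40 human libraries, after centring each table, its r with STING1 was 0.148. That was the highest of the set but level with TDG (0.147), and TET2 had the lowest (-0.433), with UHRF1 at -0.405 and HELLS at -0.163. DNMT3B was lower in all 7 comparisons where it passed, 4 with STING1 higher and 3 with STING1 lower, and TDG was lower in its 4 calls in Tax-R and MYC siRNA comparisons and higher in its 5 calls where STING1 was the target. Of the TDG calls, only those with MYC siRNA and the sgRNA in MDA-MB-436 and in Py230 held under every alternative. TDG is uncertain in Tax-R cells and in MDA-MB-436 with siRNA because of TDGP1. In Py230 effects of the drug and of the shRNA cannot be told apart. TET3 was higher in 6 of 8 calls, opposite to STING1 in 6. Its calls in Tax-R cells, with MYC siRNA and with the ORF in MDA-MB-436, and with the sgRNA in SUM159PT, were each lost under some alternatives. The DNMT3B calls with the ORF in MDA-MB-436 and in Py230 were fragile in the same way. The shares of all genes passing in each direction are given with each comparison, and none of these counts was tested against them. The human MYC siRNA comparisons used Tax-R cells, but no library stood in more than 1 table, and differences between comparisons were not tested because the tables were normalized separately.

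**Figure D3:**
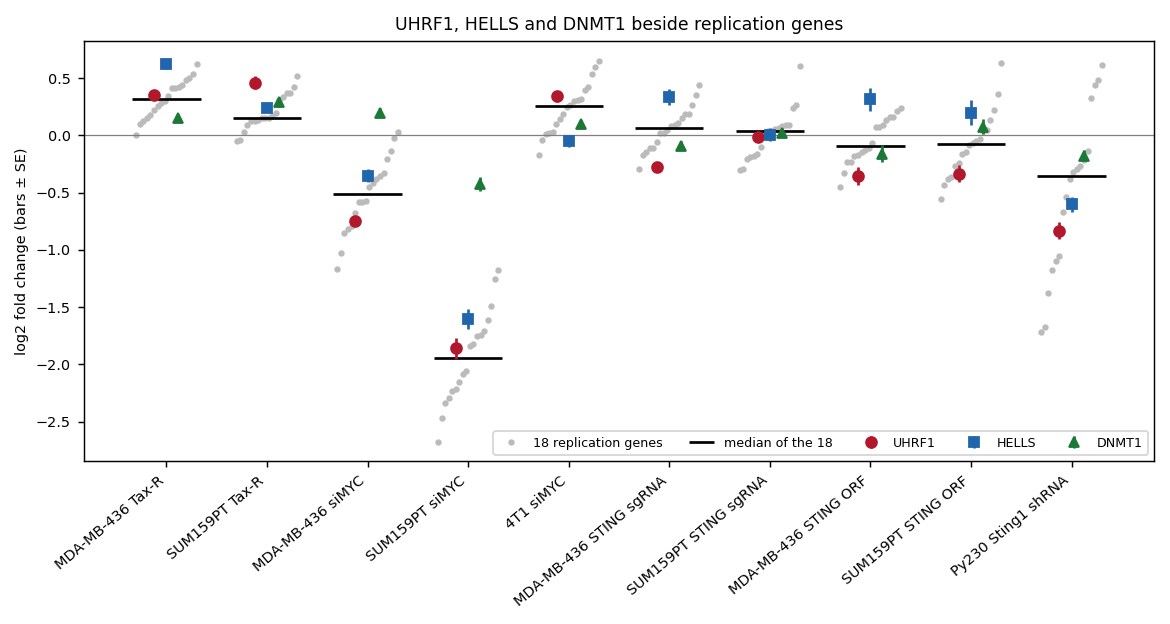
Log2 fold changes (y axis) of UHRF1, HELLS and DNMT1 (coloured, bars ± SE) beside 18 replication and S phase genes (grey points, ordered by value, black line their median) in the 10 comparisons (x axis). UHRF1 lies on the side of the replication median in both Tax-R, all 3 MYC siRNA, both ORF and the Py230 comparisons, and DNMT1 varies least of the trio.

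The other genes of the pathway, grouped in lists by role, divided as follows, in the order Tax-R, MYC siRNA, STING sgRNA and STING ORF. Of 11 methylation partners with a row (which include PCNA, USP7 and the CDCA7 genes), 7 rose and 2 fell in MDA-MB-436 Tax-R cells and 6 and 0 in SUM159PT, whereas with MYC siRNA 1 rose and 6 fell, 0 and 8, and, in 4T1, 2 and 5. With the sgRNA 3 rose and 4 fell in MDA-MB-436 and 1 and 4 in SUM159PT, with the ORF 0 and 3 in both, and in Py230 2 and 5. The 8 methyl-CpG readers split 4 higher to 1 lower, 4 to 2 and 2 to 0 with MYC siRNA in MDA-MB-436, SUM159PT and 4T1, 3 to 2 and 1 to 1 with the sgRNA, 2 to 2 and 0 to 2 with the ORF, and 2 to 4 in Py230. TET cofactors and repair genes split 1 to 9 and 2 to 5 with the sgRNA, 2 to 1 and 1 to 3 with the ORF, and 5 to 6 in Py230. Methyl donor genes split 3 to 1 and 1 to 1 in Tax-R cells, 1 to 2 and 2 to 1 with the sgRNA, 1 to 1 and 1 to 0 with the ORF, and 1 to 5 in Py230. Over all genes tested the shares higher and lower were 27.7% and 26.9%, and 23.5% and 22.1%, in the Tax-R tables, 34% and 33.7%, 35% and 34.5%, and 24.7% and 21.5% with MYC siRNA, 24.8% and 23%, and 19.3% and 19.8%, with the sgRNA, 9.2% and 11.9%, and 13.2% and 12.8%, with the ORF, and 32.8% and 35.1% in Py230. Many of the list counts lie near these shares, and none was tested against them.

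Genes whose pattern was most like each member were sought over the 40 human libraries, after centring each table, among 12382 genes tested in all 8 human tables. The libraries fall into groups that share tables, so the coefficients describe these libraries only. UHRF1 was closest to CENPM (r = 0.977), a centromere protein, CHAF1A (0.972), a subunit of the chromatin assembly factor of replication, and MCM2 (0.971), a subunit of the replicative helicase that is also on the replication list. HELLS was closest to EXOSC9 (r = 0.962), EXO1 (0.955), a nuclease of mismatch repair, and ZGRF1 (0.953). DNMT1 was less tightly matched, to E2F2 (r = 0.801), E2F1 (0.763) and TUBB (0.758). DNMT3A was closest to CYTH2 (0.873), DNMT3B to C1orf198 (0.888), TET2 to KIAA0753 (0.787) and TET3 to ANKRD50 (0.892). TET1 and TDG shared neighbours, with LARP4 (r = 0.878 for TET1 and 0.870 for TDG) and GTF2H1 (0.876 and 0.872), a subunit of a general transcription factor, among the 3 closest of each.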

How the data were processed

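The deposited values of the 55 RNA-seq libraries are normalized counts (unit: signal), in which the authors scaled the reads of every gene in a library by the same factor, separately for each of 10 tables. HISAT2, featureCounts, StringTie and DESeq2 appear in the submitters' processing notes without roles or versions. Genome build: not given in the sources used here. All values (100%, tolerance 0.05) were whole multiples of a step, which returned the reads, 5663610 to 13191675 per library. That depth limits the low members most.

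Groups followed the labelled line and treatment, and 0 columns were unmapped. limma-trend (limma 3.58.1, R 4.3.3) was fitted to each table alone, two-sided, on log2(value + 1), for genes averaging at least 10 in the table. A call is a Benjamini-Hochberg adjusted p below 0.05. The mean of both reagents was set against the control where there were 2, and a fold is 2 to the power of the log2 change. The scripts were tested on simulated data. Results were recomputed with a pseudocount of 4, without the filter, after quantile normalization, with replicate number as block, by edgeR (4.0.16) and DESeq2 (1.42.0) from the whole reads, for single reagents, with libraries left out in turn, and with the MDA-MB-436 Tax-R pair averaged. The contrast of reagents C2 and C1 was added after seeing the data.

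Genes named are the 9 members, STING1, MYC, the called genes with the largest rise and fall of each list per comparison (in part), and the 3 genes most like each member (in part). CDCA7, the partner of HELLS, and cell type markers are named besides. Members and lists were chosen with earlier results of these data known. The lists were methylation partners (12 genes), methyl-CpG readers (8), TET cofactors and base excision repair (16), methyl donor synthesis (7) and replication and S phase (18).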

Additional observations from a re-analysis of the deposited data

Results flagged for a closer look

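Some members moved in opposite directions in different lines under MYC siRNA, with every siMYC library of a line on the same side of all its control libraries. The differences between lines were not tested, because the tables were normalized separately. DNMT1 changed by 0.20 (log2) in MDA-MB-436 and -0.43 in SUM159PT, and by 0.10 in 4T1, where its call was fragile. UHRF1 changed by -0.75 in MDA-MB-436 and -1.86 in SUM159PT but by 0.34 in 4T1. TET3 changed by 0.16 and 0.67 in those human lines but by -0.48 in 4T1.

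DNMT1 also differed in direction with the STING ORF, at -0.16 in MDA-MB-436 and 0.076 in SUM159PT, with no overlap of groups in either line. Neither value passed limma's test and the difference was not tested.

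In SUM159PT the groups C1 and C2, both labelled as STING sgRNA, differed from each other in UHRF1 (-0.20 for C2 minus C1) and HELLS (0.22), by limma's test of that contrast in the same fit. STING1 was similarly low in C1 and C2 there.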

How the results depend on the processing

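Of 1134 values of single members under alternatives, 1009 kept direction and side of the threshold, 89 lost a call, 13 gained a call, 23 were uncalled values that changed sign, and 0 called values changed sign. The number of members called fell by more than 1.5 times with DESeq2 in MDA-MB-436 Tax-R cells (4 of 9 called, against 7), SUM159PT with STING sgRNA (2, against 4) and MDA-MB-436 with STING ORF (1, against 5). With no filter on low values it fell to 1 in SUM159PT with STING sgRNA and to 0 in both ORF comparisons, where even STING1 lost its call (adjusted p = 0.12 in MDA-MB-436 and 0.0845 in SUM159PT). Unfiltered, 4 and 0 of all genes were called there, against 3134 and 3875. The cause was not tested.

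Leaving out 1 library at a time gave 6 to 7 members called in MDA-MB-436 Tax-R cells, 8 to 8 in SUM159PT Tax-R, 7 to 8 and 7 to 9 with MYC siRNA in MDA-MB-436 and SUM159PT, 3 to 4 in 4T1, 4 to 6 and 2 to 3 with STING sgRNA in MDA-MB-436 and SUM159PT, 1 to 6 and 1 to 5 with STING ORF, and 6 to 7 in Py230. With the lone libraries this leaves, the spread is taken from the other groups.

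The replicate number as a block gave 7, 8, 8, 9, 3, 5, 4, 6, 5 and 7 members called, in the order Tax-R, MYC siRNA, STING sgRNA and STING ORF (MDA-MB-436 before SUM159PT, 4T1 after the human siRNA tables) and Py230, against 7, 8, 8, 9, 4, 5, 4, 5, 4 and 7 without it. Same-numbered libraries deviated together little (r from -0.0913 to 0.11 over the 10 tables, the highest with STING ORF in SUM159PT), so the main fits took them to share only a number. With STING ORF the block nevertheless raised calls over all genes. They went from 1366 higher and 1768 lower to 1962 and 2438 in MDA-MB-436. In SUM159PT they went from 1964 and 1911 to 2707 and 2518. Whether the ORF libraries were paired was not tested. Over all genes, DESeq2 called 5913 against 10421 and 4447 against 8386 in the Tax-R tables (MDA-MB-436 first), 4254 against 7316 and 3198 against 5927 with STING sgRNA, and 1017 against 3134 and 1591 against 3875 with STING ORF. Calls over all genes also dropped with C1 alone in SUM159PT (3487), without GFP replicate 1 or STING replicate 2 in the MDA-MB-436 ORF table (1707 and 1247) and without GFP replicate 1 or 2 in the SUM159PT ORF table (1257 and 1489). Among list genes, MBD3 changed sign in SUM159PT with C1 alone (0.0038, against -0.14). At these depths Tet1 in 4T1, with an SE of 0.25, is imprecise.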
